A study of Zea mays with 6 samples.

Results

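The genes described here encode the enzymes that fix carbon in the C4 leaf of maize. They are 10 gene models of the 39634 listed in the deposited files, chosen as a fixed set of gene models: 2 carbonic anhydrases, 1 phosphoenolpyruvate (PEP) carboxylase, 1 NADP-malate dehydrogenase, 1 NADP-malic enzyme, 1 PEP carboxykinase, 2 Rubisco small subunits and 2 pyruvate phosphate dikinases. RNA was sequenced from leaves of seedlings of the inbred line B73, 2 weeks old at the start, in 3 conditions with 2 biological replicates each. All seedlings were lifted from soil and kept overnight with their roots in water. Watered plants (W) were not dried, S1 plants were air-dried once for 2 h, and S3 plants were air-dried 3 times, each time for 2 h, with 22 h of watered recovery between dryings. By this schedule S3 plants were older and longer out of soil than S1 plants when sampled. Age and time out of soil cannot be told apart from repeated drying. When the watered leaves were taken is not given. Each library came from the leaves of several plants. The question of the series was whether genes respond differently to a repeated dehydration than to the first one.

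In a C4 leaf, carbonic anhydrase turns CO2 into bicarbonate in the mesophyll, and PEP carboxylase adds it to PEP. NADP-malate dehydrogenase reduces the product to malate, which moves to the bundle sheath. There NADP-malic enzyme, and in maize also PEP carboxykinase, release CO2 beside Rubisco, whose small subunit is encoded in the nucleus. Pyruvate returns to the mesophyll, where pyruvate phosphate dikinase (PPDK) makes PEP again. Transcripts of these enzymes are known to be among the most abundant of the maize leaf, and their genes to be light-regulated and largely expressed in one of these cell types.

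Levels are given in FPKM, a measure scaled by transcript length and library size, so that they can be set side by side between genes. The libraries summed to between 568731 and 672411 FPKM, with 27261 to 27892 genes above 0. The sequencing depth behind a value is unknown from FPKM, and the number of libraries limits the precision. Genes of the photosystems and chlorophyll a-b binding proteins, 44 by description, marked the tissue as green leaf in every library. Of the 24 zein genes of the endosperm, 20 were at 0 in all 6 libraries, and their sum of 15.5 to 25.1 FPKM came almost wholly from GRMZM2G094532, described as a zein protein-body ER membrane protein. The 16 genes described with the word root summed to 314 and 318 FPKM in W, 329 and 370 FPKM in S1 and 481 and 451 FPKM in S3, with 8 of them at 0 in all 6 libraries, and 17 MADS genes summed to 10.6 to 19.4 FPKM, highest in S3.

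All 10 genes passed the filter of at least 1 FPKM in at least 2 libraries. Changes are log2 fold changes on the log2(FPKM + 1) scale from limma fitted over all genes that passed, with calls made at an adjusted p of 0.05 or less and a change of 2-fold or more. Most of the C4 genes were lower in leaves dried for the third time. None was called after the first drying, which for 9 genes is close to the share of all tested genes given below. Between S3 and S1, 6 of the 9 genes with a value were called lower and 0 higher, against 9.22% of all tested genes called lower, 9.17% called higher and 18.4% called either way. Between S1 and W, 0 of the 9 were called in limma, against 9.04% of all tested genes (7.51% higher), and 2 of them, GRMZM2G348512 and PEP carboxykinase, had an unadjusted p below 0.05. Between S3 and W, 6 of 10 were called lower, against 8.70% of all tested genes, and 1 was called higher, against 13.3%. The median log2 fold change of the C4 genes was -2.37 for S3 against S1 (all tested genes 0.11), 0.20 for S1 against W (all tested genes -0.01) and -1.63 for S3 against W (all tested genes 0.16). In bulk leaf RNA, fewer cells of a type and less RNA per cell cannot be told apart.

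**Figure D1:**
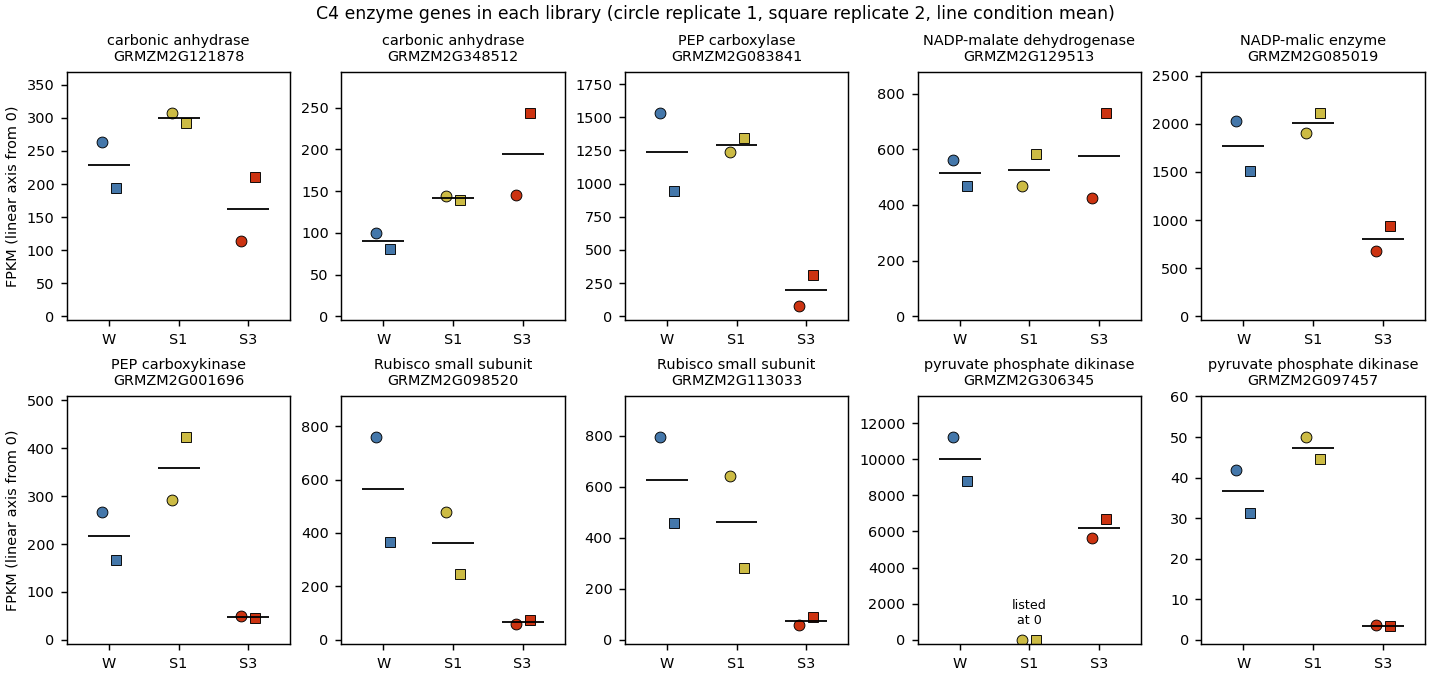
FPKM (linear axes starting just below 0, a scale per gene) of the 10 C4 genes in the 2 libraries of W, S1 and S3, with circles for replicate 1, squares for replicate 2 and a line at the mean of each condition. The S3 points of PEP carboxylase, NADP-malic enzyme, PEP carboxykinase, both Rubisco small subunits and GRMZM2G097457 lie below all W and S1 points, and GRMZM2G306345 is listed at 0 in S1.

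The 2 carbonic anhydrase genes, which supply bicarbonate to PEP carboxylase, had changes of opposite sign in S3, of which only the rise of GRMZM2G348512 relative to W was called. GRMZM2G121878 had 263 and 195 FPKM in W, 307 and 292 FPKM in S1, and 115 and 210 FPKM in S3. Its S3 libraries lay below both S1 libraries but overlapped those of W. The log2 fold change of S3 against S1 was -0.94 (standard error 0.31, limma adjusted p = 0.0454), just short of 2-fold, and that of S3 against W was -0.54 (95% interval -1.26 to 0.17, adjusted p = 0.194 in limma). Without replicate 2 of S3 the change against S1 was -1.38 and was called (adjusted p = 0.00732 in limma). Without replicate 1 of S3 it was -0.51 (adjusted p = 0.200 in limma). It was also called after median-of-ratios scaling, at -1.08, and after upper-quartile scaling, at -1.06, whereas with only the 4 libraries compared its adjusted p was 0.0578 in limma.

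GRMZM2G348512, the other carbonic anhydrase, had 100.4 and 81.1 FPKM in W, 144.6 and 139.4 FPKM in S1, and 144.9 and 243.8 FPKM in S3. Every dried library was above both watered libraries, and the S3 libraries were above those of S1, replicate 1 of S3 by only a fraction of 1 FPKM. This was the single C4 gene called higher, by 1.05 log2 units in S3 against W (standard error 0.26, adjusted p = 0.0157 in limma). The changes of S1 against W, 0.65 (adjusted p = 0.142 in limma), and of S3 against S1, 0.40 (adjusted p = 0.264 in limma), were not called. The call rested on single libraries and on the scaling. Without replicate 2 of W the change of S3 against W was 0.90 (adjusted p = 0.0914 in limma), and without replicate 2 of S3 it was 0.68 (adjusted p = 0.0512 in limma). It lay under 2-fold at 0.89 after median-of-ratios scaling, 0.82 after upper-quartile scaling and 0.99 after quantile normalization.

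Of the summed FPKM of the carbonic anhydrase pair, GRMZM2G348512 made up 27.6% and 29.4% in the W libraries, 32.0% and 32.3% in the S1 libraries, and 55.9% and 53.7% in the S3 libraries. The mean share in S3, 54.8% ± 1.53 (SD, n = 2), was thus above that in S1, 32.2% ± 0.227 (SD, n = 2), by more than the spread between replicates. The sum of the pair was 259 and 454 FPKM in S3 and 452 and 431 FPKM in S1, so that the sums overlapped. The genes are neighbours, with 1 or 2 RefSeq genes between them, and GRMZM2G348512 is a synonym of 2 RefSeq genes. Reads from such related genes can be shared out between them in counting, so the level of each is uncertain. No exact permutation test of such shares and ratios, 30 comparisons in all, can fall below p = 0.333 with 2 libraries against 2.

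PEP carboxylase catalyses the first fixation of carbon in the cycle. GRMZM2G083841, named PEPC1 and PPC1 in RefSeq, had 1533 and 941 FPKM in W, 1238 and 1343 FPKM in S1, and 80.3 and 311 FPKM in S3. Both S3 libraries were far below the other 4, and replicate 1 of S3 was the lowest of all. The mean was 196 ± 163 FPKM in S3 and 1290 ± 74.8 FPKM in S1 (SD, n = 2 each). S3 differed by -3.02 log2 units relative to S1 (standard error 0.58, adjusted p = 0.00605 in limma) and by -2.92 relative to W (adjusted p = 0.00574 in limma). S1 against W gave 0.10 (95% interval -1.24 to 1.45, adjusted p = 0.925 in limma), an interval that does not exclude a 2-fold change either way. The 2 replicates of S3 differed 3.87-fold, the widest gap between replicates among the 10 genes. Without replicate 1 of S3 the change against S1 was -2.05 (adjusted p = 0.00838 in limma), and without replicate 2 of S3 it was -3.99.

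By rank among all listed genes, PEP carboxylase stood between the 46th and the 64th place in the W and S1 libraries, and at places 1130 and 218 in S3. Its level relative to NADP-malic enzyme was 0.119 and 0.332 in S3 and 0.649 and 0.636 in S1. The W libraries, at 0.756 and 0.625, did not overlap with S3 either.

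NADP-malate dehydrogenase, GRMZM2G129513, is the chloroplast enzyme that reduces oxaloacetate to malate. It had 560 and 470 FPKM in W, 467 and 583 FPKM in S1, and 423 and 731 FPKM in S3. The libraries of the 3 conditions overlapped, and the S3 libraries held both the lowest and the highest value. The log2 fold change was 0.09 for S3 against S1 (95% interval -0.64 to 0.83, adjusted p = 0.841 in limma), and all changes of this gene turned sign under some alternatives. It was the one C4 gene whose libraries overlapped in each of the comparisons. The ratio of NADP-malate dehydrogenase to NADP-malic enzyme was 0.276 and 0.312 in the W libraries, 0.245 and 0.276 in the S1 libraries and 0.625 and 0.781 in the S3 libraries.

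**Figure D2:**
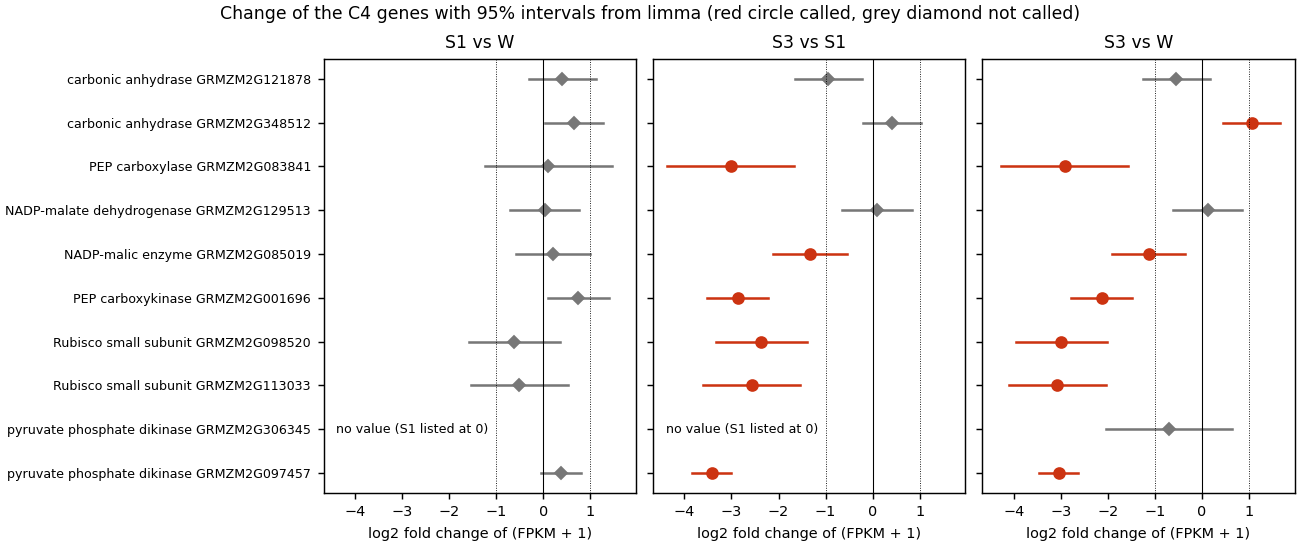
Log2 fold changes on the log2(FPKM + 1) scale of the 10 C4 genes with 95% intervals from limma, for S1 against W, S3 against S1 and S3 against W. Red circles mark called genes, grey diamonds genes not called, dotted lines 2-fold and the solid line no change. None of the 9 genes with a value was called in S1 against W, where 9.04% of all tested genes were. In S3 against S1, 6 were called lower, against 9.22% of all tested genes. GRMZM2G348512 was called higher in S3 against W.

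NADP-malic enzyme, the main decarboxylase of the maize bundle sheath, had the highest level among the genes with values in all libraries. GRMZM2G085019 had 2028 and 1505 FPKM in W, 1907 and 2113 FPKM in S1, and 677 and 936 FPKM in S3. The S3 libraries did not overlap with the others. S3 differed by -1.33 log2 units relative to S1 (standard error 0.34, adjusted p = 0.0180 in limma) and by -1.13 relative to W (adjusted p = 0.0299 in limma), the smallest called falls of the C4 genes. The call against S1 did not hold without replicate 1 of S1 (adjusted p = 0.0782 in limma), replicate 2 of S1 (0.102) or replicate 1 of S3 (0.0852). The call against W did not hold without replicate 1 of W (0.138), replicate 1 of S3 (0.136), replicate 1 of S1 (0.0581) or replicate 2 of S1 (0.0587). The log2 fold change in these fits was between -1.41 and -1.10 against S1 and between -1.13 and -0.90 against W.

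PEP carboxykinase, a second decarboxylase, changed more than NADP-malic enzyme. GRMZM2G001696 had 266 and 166 FPKM in W, 291 and 424 FPKM in S1, and 49.3 and 45.3 FPKM in S3. Both S1 libraries were above both W libraries, and the S3 replicates were close to each other and below the rest. The change of S1 against W was 0.74 (95% interval 0.09 to 1.39, adjusted p = 0.118 in limma) and was not called. S3 gave log2 fold changes of -2.87 relative to S1 (standard error 0.28, adjusted p = 0.000399 in limma) and -2.13 relative to W (adjusted p = 0.00088 in limma). These calls held in every alternative tried. The level of NADP-malic enzyme was 7.63 and 9.04 times that of PEP carboxykinase in W, 6.55 and 4.98 times in S1 and 13.7 and 20.7 times in S3. The ratio in S3, 17.2 ± 4.88, lay above that in S1, 5.76 ± 1.11 (SD, n = 2 each).

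The small subunit genes of Rubisco, which fixes the released CO2, fell together in S3. GRMZM2G098520 had 761 and 367 FPKM in W, 480 and 247 FPKM in S1, and 58.9 and 73.5 FPKM in S3. GRMZM2G113033, for which the deposited description names no function and RefSeq gives rbcS, had 798 and 458 FPKM in W, 642 and 281 FPKM in S1, and 56.7 and 88.2 FPKM in S3. In both genes replicate 1 was above replicate 2 in W and in S1, W and S1 overlapped, and S3 lay below all other libraries. Relative to S1, the S3 changes were -2.37 for GRMZM2G098520 (standard error 0.41, adjusted p = 0.00413 in limma) and -2.57 for GRMZM2G113033 (standard error 0.44, adjusted p = 0.00387 in limma).

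Relative to W, they were -2.99 in GRMZM2G098520 (adjusted p = 0.00116 in limma) and -3.08 in GRMZM2G113033 (adjusted p = 0.00137 in limma). The S1 changes, -0.62 and -0.51, had 95% intervals of -1.58 to 0.35 in GRMZM2G098520 and -1.54 to 0.52 in GRMZM2G113033. With 1 library left out, that of GRMZM2G098520 ranged between -1.14 without replicate 2 of W and -0.09 without replicate 1 of W, and that of GRMZM2G113033 between -1.10 without replicate 1 of S1 and 0.087 without replicate 2 of S1. Leaving out 1 library at a time, the change of S3 against S1 ranged between -2.85 and -1.89 in GRMZM2G098520 and between -3.16 and -1.97 in GRMZM2G113033, the larger falls without replicate 2 of S1 and the smaller falls without replicate 1 of S1. GRMZM2G098520 made up 42.8% to 51.0% of the summed FPKM of the pair in the 6 libraries, and the shares of the conditions overlapped. Reads of such similar genes may have been shared out between the pair, which leaves the level of each uncertain. Their sum was 1558 and 824 FPKM in W, 1122 and 528 FPKM in S1 and 116 and 162 FPKM in S3.

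PPDK regenerates the acceptor of the cycle. For the 2 PPDK models, the deposited descriptions and RefSeq differ. GRMZM2G306345 is described as a truncated cytosolic orthophosphate dikinase and is C4ppdkZm1 and pdk1 in RefSeq, whereas GRMZM2G097457 is described as a chloroplastic pyruvate phosphate dikinase and is CYPPDKZM2 and PPDK2 in RefSeq. GRMZM2G306345 had 5635 and 6695 FPKM in S3 and 11253 and 8819 FPKM in W, and it is listed at 0 in both S1 libraries. It ranked highest or second highest of all listed genes in each W and S3 library. The authors' pooled S1 value from the other run is also 0. It was the only one of the 39634 genes listed at 0 in both S1 libraries and at 10 FPKM or more in the other 4. Genes of the same cycle were abundant in S1. The S1 zeros were treated as missing values, as for a failed estimate, and no fold change with S1 is given. Whether the estimate failed or the transcript was absent was not tested.

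The S1 values of GRMZM2G306345 were left out of the fit. S3 relative to W gave a change of -0.70 log2 units (standard error 0.56, 95% interval -2.03 to 0.64, adjusted p = 0.356 in limma), although both S3 libraries lay below both W libraries. After quantile normalization the change was 0, a scale on which only ranks count, and the gene held ranks 2 and 1 in S3 as in W. With the zeros kept in the fit, an alternative added after seeing the data, the change was the same, with an adjusted p of 0.0457 in limma, and was not called because it is under 2-fold. The equal zeros add a condition with no spread between replicates, so this smaller p is no further support for a fall. The share of this 1 gene in the summed FPKM of a library was 0.987% and 1.10% in S3 and 1.67% and 1.55% in W.

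GRMZM2G097457 was the least abundant of the 10 genes and fell the most in S3 against S1. It had 41.9 and 31.2 FPKM in W, 50.1 and 44.5 FPKM in S1, and 3.60 and 3.40 FPKM in S3. Both S1 libraries were above W and both S3 libraries far below it, with replicates of S3 nearly equal. S3 differed by -3.42 log2 units relative to S1 (standard error 0.18, adjusted p = 7.73e-05 in limma) and by -3.05 relative to W (adjusted p = 3.64e-05 in limma), and the +1 in the scale understates these falls. S1 against W was 0.38 (95% interval -0.04 to 0.79, adjusted p = 0.204 in limma). Counted from the largest fall relative to S1, it stood at place 54 of 20129 tested genes. The ratio of GRMZM2G306345 to GRMZM2G097457 was 1565 and 1967 in S3 and 268 and 282 in W. As for the pairs above, reads can be shared out between related genes in counting. The level of the much rarer GRMZM2G097457 is therefore uncertain, also in S1, where GRMZM2G306345 is listed at 0.

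The order of the levels differed between the conditions. In W, GRMZM2G306345 was highest, followed by NADP-malic enzyme and PEP carboxylase, whose libraries overlapped at 1505 and 1533 FPKM. The Rubisco small subunits and NADP-malate dehydrogenase came next and did not differ beyond their spread, nor did the following pair of GRMZM2G121878 and PEP carboxykinase. GRMZM2G348512 and GRMZM2G097457 closed the order. In S3, GRMZM2G306345 was still highest, and NADP-malic enzyme and NADP-malate dehydrogenase overlapped behind it. GRMZM2G348512, PEP carboxylase and GRMZM2G121878 overlapped after that. The Rubisco small subunits came next by mean, though GRMZM2G113033 overlapped with PEP carboxylase at 88.2 and 80.3 FPKM. PEP carboxykinase and GRMZM2G097457 were lowest.

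**Figure D3:**
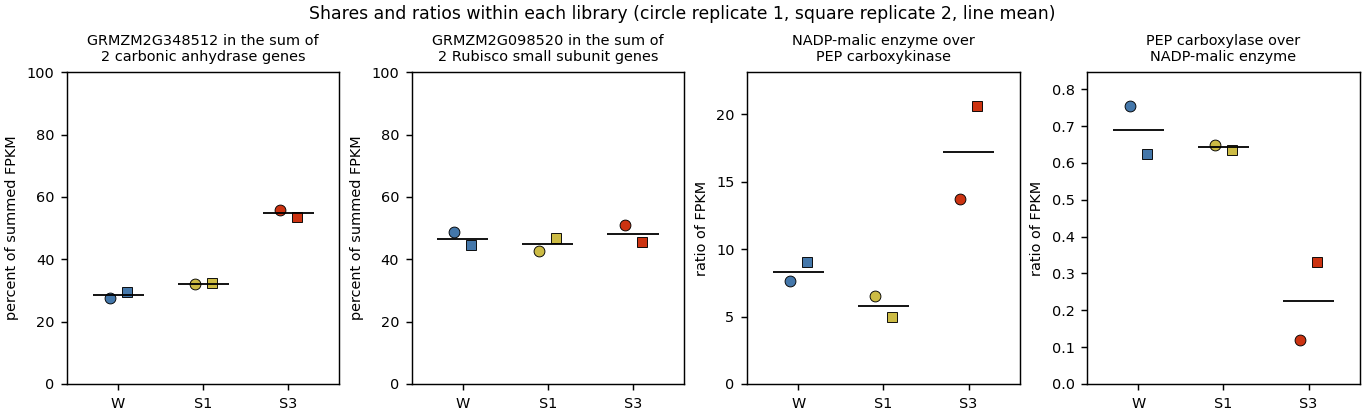
Shares of 1 gene in the summed FPKM of a pair (percent) and ratios of FPKM between enzymes in each library, with circles for replicate 1, squares for replicate 2 and lines at the means. GRMZM2G348512 makes up 55.9% and 53.7% of the carbonic anhydrase sum in S3 and 32.0% and 32.3% in S1, and the share of the Rubisco small subunit gene overlaps between conditions.

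Grouped by the cells they are known for, the mesophyll enzymes with values in all libraries (both carbonic anhydrases, PEP carboxylase and NADP-malate dehydrogenase) summed to 763 and 1496 FPKM in S3 and to 2157 and 2357 FPKM in S1. The bundle sheath enzymes (NADP-malic enzyme, PEP carboxykinase and both Rubisco small subunits) summed to 842 and 1143 FPKM in S3 and to 3320 and 3065 FPKM in S1. All 4 bundle sheath genes were called lower in S3 against S1, and of the 4 mesophyll genes only PEP carboxylase was. Of all tested genes, 9.22% were called lower. The call of NADP-malic enzyme did not hold in every alternative, and the mesophyll gene GRMZM2G121878 fell just short of 2-fold. Whether the cell groups differ was not tested. The libraries of S3 lay wholly below those of S1 for 7 of 9 genes, against 28.3% of all tested genes, and wholly above for 1, against 42.1%. They lay wholly below those of W for 7 of 10 genes, against 27.4% of all tested genes.

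Replicates of W and S3 stood apart for most of these genes. In W, replicate 1 was higher than replicate 2 for 10 of 10 genes, by 1.19 to 2.07 times. In S3, replicate 2 was higher for 8 of 10 genes, PEP carboxykinase and GRMZM2G097457 being the exceptions. The photosystem and chlorophyll a-b binding genes summed to 68065 and 41805 FPKM in the replicates of W, 45738 and 46855 FPKM in those of S1 and 13654 and 20193 FPKM in those of S3. Their sum was thus lower in S3, as for most C4 genes, and it had the same order of replicates in W and S3. In S1 against W the 33 tested genes of that list had a median log2 fold change of -0.22, whereas that of the C4 genes was 0.20. The sum of the root word list was higher in S3, as given above. The 41 genes with actin, tubulin or elongation factor 1-alpha in their description include actin-depolymerizing factors. They summed to 1832 and 1785 FPKM in W, 1994 and 2110 FPKM in S1 and 2167 and 2133 FPKM in S3. The part of these in the result was not tested.

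Genes related by name were taken by words in the deposited descriptions, which gave 38 genes, of which 32 were tested. They include enzymes and carriers outside the cycle, such as a glyoxysomal malate dehydrogenase. Between S3 and S1, 7 of the 32 were called higher and 8 lower, against 9.17% and 9.22% of all tested genes. The median log2 fold change was -0.06 (all tested genes 0.11). Between S1 and W, 4 were called higher and 1 lower, against 7.51% and 1.53% of all tested genes. Between S3 and W, 9 were called higher and 7 lower, against 13.3% and 8.70%. In S3 the related genes thus moved both ways, and in each direction a larger share of them was called than of all tested genes. Whether the list differs from other genes was not tested.

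The other PEP carboxylases were far less abundant than GRMZM2G083841, and 1 of them was called higher in S3 relative to W. This gene, GRMZM2G069542, named after its values were seen, had 4.26 and 5.57 FPKM in W, 12.6 and 8.13 FPKM in S1, and 25.4 and 17.3 FPKM in S3, a change of 1.90 relative to W (adjusted p = 0.00108 in limma). GRMZM2G473001, described as PEP carboxylase 2, had 12.9 and 19.1 FPKM in W, 18.7 and 14.2 FPKM in S1, and 20.9 and 22.7 FPKM in S3, and was not called. PEP carboxylase kinase phosphorylates the enzyme and makes it less sensitive to malate. GRMZM2G096753, described as PEP carboxylase kinase 3, had 0.154 and 0.226 FPKM in W, 4.89 and 2.70 FPKM in S1, and 0.356 and 0.401 FPKM in S3. It was called higher in S1 relative to W, at 1.97 log2 units (adjusted p = 0.00167 in limma), and lower in S3 relative to S1, at -1.76. GRMZM2G135091, kinase 2, was called higher in S3 against S1, at 1.22.

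The carbonic anhydrase GRMZM2G087259 had 0.481 and 0.597 FPKM in W, 4.05 and 4.65 FPKM in S1, and 0.647 and 0.728 FPKM in S3, and was called higher in S1 and lower again in S3. GRMZM2G145101, the most abundant carbonic anhydrase outside the 10 genes, had 58.2 and 63.3 FPKM in S3, against 30.8 and 28.4 FPKM in S1, and its change of 1.01 was called. The regulatory protein of PPDK, GRMZM2G131286, had 376 and 570 FPKM in S3 and 677 and 891 FPKM in S1, a change of -0.75 that was not called. Rubisco activase, GRMZM2G162200, keeps Rubisco active and fell to 115 and 158 FPKM in S3, against 321 and 400 FPKM in S1, a called change of -1.41. GRMZM2G015989, described as a subunit of the Rubisco large subunit-binding protein and named after its values were seen, was called higher, with 47.1 and 52.4 FPKM in S3 and 21.9 and 19.7 FPKM in S1, a change of 1.22. The 4 models described as the Rubisco large subunit, which is encoded in the plastid, were at 2.58 FPKM or less.

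Of the 8 genes named as malic enzyme or malate dehydrogenase, 2 were called higher in S3 against S1 and none lower. Of all tested genes, 9.17% were called higher and 9.22% lower. Of these 8, 2 are isopropylmalate dehydrogenases of leucine synthesis, and 1 of them, GRMZM2G104613, named after its values were seen, is among those called. The most abundant, cytoplasmic malate dehydrogenase GRMZM2G415359, had 201 and 292 FPKM in S3 and 308 and 397 FPKM in S1 and was not called. The other called gene, singled out after its values were seen, is the NADP-dependent malic enzyme GRMZM2G118770, which had 21.2 and 41.6 FPKM in S3, against 0.165 and 0.074 FPKM in S1, while W had 0.0513 FPKM in replicate 1 and is listed at 0 in replicate 2. The NADP-dependent malic enzyme GRMZM2G122479, also singled out after its values were seen, had 35.9 and 37.6 FPKM in W, 55.2 and 59.4 FPKM in S1, and 116 and 111 FPKM in S3. It was called higher in S3 relative to W, at 1.60 (adjusted p = 0.000208 in limma), and its change of 0.98 relative to S1 was just under 2-fold. So both of these malic enzyme genes were called higher in S3 than in W, while the abundant GRMZM2G085019 was called lower. Of all tested genes, 13.3% were called higher in S3 against W. The malic enzyme genes GRMZM2G085747 and GRMZM5G886257 were not called, at 0.41 and 0.18 in S3 against W. Neither of the 2 tested aminotransferases was called, the more abundant being GRMZM5G836910 for aspartate at 95.8 and 161 FPKM in S3 and 188 and 233 FPKM in S1. Of 2 inorganic pyrophosphatases, which remove a by-product of PPDK, the more abundant GRMZM2G061928 was not called, and GRMZM2G104918, named after its values were seen, was called higher in S3 relative to S1, at 1.05.

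Transporters carry the intermediates of the cycle across membranes. Of 10 transporters by description, most of them plastidic, 5 were called lower and 1 higher in S3 against S1. Of all tested genes, 9.22% were called lower and 9.17% higher. The triose phosphate translocator GRMZM2G070605 had 1288 and 1060 FPKM in W, 984 and 925 FPKM in S1, and 186 and 340 FPKM in S3, a change of -1.92 against S1. The glucose-6-phosphate translocator GRMZM2G009223 was called lower in both steps, at -1.09 between S1 and W and -2.63 between S3 and S1. The translocator-like genes GRMZM2G062555 and GRMZM2G130558 were called higher in S1 against W, at 1.01 and 1.07. The dicarboxylate transporter GRMZM2G086258, named after its values were seen, had 16.5 and 39.8 FPKM in S3 and 167 and 151 FPKM in S1.

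**Figure D4:**
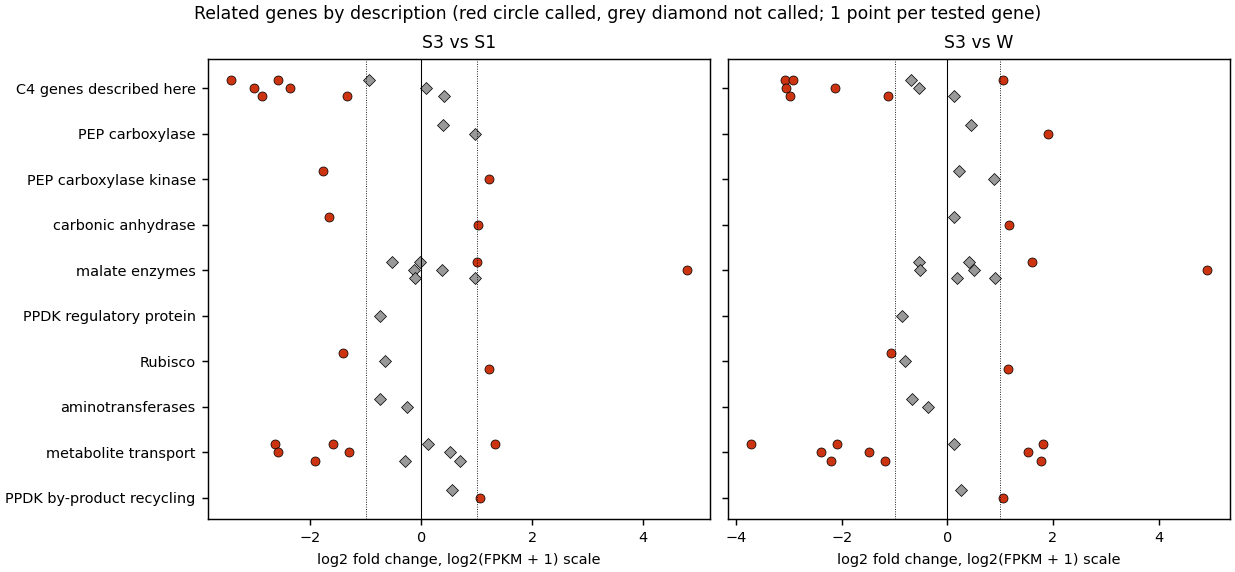
Log2 fold changes on the log2(FPKM + 1) scale of the C4 genes described here and of the 32 tested related genes, by the words in their descriptions, for S3 against S1 and S3 against W. Red circles are called and grey diamonds not called, and points are spread vertically only to separate them. In S3 against S1, 8 related genes were called lower and 7 higher, against 9.22% and 9.17% of all tested genes.

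The pattern most like that of the C4 genes was sought over the 6 libraries, as the Pearson r with the mean of the standardised log2 profiles of the 9 genes above 0 in all libraries. This is a description, since the libraries fall into 3 conditions and share the scaling. Among the 20120 other tested genes, 143 had an r of at least 0.95. The 5 highest with a mean of at least 100 FPKM were GRMZM2G120563, GRMZM2G077333, GRMZM2G391936, GRMZM2G382914 and GRMZM2G081462, with r between 0.98 and 0.99. GRMZM2G077333 is described as the photosystem II 22 kDa protein and had 86.5 and 162 FPKM in S3 and 303 and 313 FPKM in S1. GRMZM2G391936 is described as the large subunit of plastid ADP-glucose pyrophosphorylase, an enzyme of starch synthesis, and had 129 and 171 FPKM in S3 and 206 FPKM in both S1 libraries. Of the C4 genes themselves, NADP-malate dehydrogenase had an r of 0.27 and GRMZM2G348512 one of -0.29 with this profile. The others with a value in all libraries had an r between 0.86 and 0.98. Each of these genes is part of the profile, which raises its r, so these values cannot be set beside those of other genes.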

How the data were processed

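The authors mapped the reads of 6 leaf libraries to B73 RefGen_v2 with bowtie and tophat and deposited FPKM values per gene from cuffdiff, 1 value per library and 1 per condition. The submitters' processing notes name CASAVA 1.8.2, TopHat 0.12.8 and Cuffdiff. The deposited table also holds the authors' fold changes and q-values, which were not used. W and S1 libraries come from 1 run and S3 libraries from another. To bridge the runs, S3 was scaled by 0.993, which is how far the S1 library means stood from the pooled S1 value at the median, and 91.1% of genes lay within 0.5% of it. Comparisons of S3 with W or S1 depend on that scaling.

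The 20130 genes that reached 1 FPKM in 2 or more libraries were fitted as log2(FPKM + 1) with limma 3.58.1 (R 4.3.3), a mean per condition, a trend and Benjamini-Hochberg adjustment over all of them. The S1 zeros of GRMZM2G306345 were set to missing. P-values measure the spread between these samples, described as biological replicates, and with a library left out the lone sample is assumed to vary like the other conditions. On simulated data with normal noise the fit recovered most of the largest changes put in. Changes as small as 2-fold were not simulated. Alternatives were 3 scalings, no bridge, 2 filters, 2 pseudocounts, other thresholds, fewer libraries, a replicate block and each library left out. The members and lists were chosen with earlier results of these data known. Named related genes were the most abundant of each word group and those called in S1 against W, and others are marked as named after their values were seen. The word actin was required whole, after it had matched interacting. Of the models, 18773 matched a RefSeq synonym (Zm-B73-REFERENCE-NAM-5.0), used for names only. Python 3.11.15, numpy 2.4.6, pandas 2.3.3 and matplotlib 3.10.9 were used.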

Additional observations from a re-analysis of the deposited data

How the results depend on the processing

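The number of C4 genes called stayed at 0 in S1 against W under all alternatives, and lay between 5 and 7 in S3 against S1 (main value 6) and between 5 and 7 in S3 against W (main value 7). Calls of PEP carboxylase, PEP carboxykinase, both Rubisco small subunits and GRMZM2G097457 in S3 held throughout. NADP-malic enzyme was not called at an adjusted p limit of 0.01, nor, at an unchanged -1.33 against S1 and -1.13 against W, without the filter (adjusted p = 0.132 and 0.180 in limma), and quantile normalization gave -0.82 and -0.51. With only the 4 libraries compared it was not called against W (0.0581). Median-of-ratios scaling moved the median of all genes in S3 against W to 0.02, compared with 0.16. It gave 2148 higher and 2025 lower genes in S3 against W, compared with 2673 and 1751, and 1471 and 2072 in S3 against S1, compared with 1845 and 1855. Without a fold threshold 3211 genes were called in S1 against W, 7466 in S3 against S1 and 8270 in S3 against W, compared with 1819, 3700 and 4424.

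Changes that were not called turned sign. NADP-malate dehydrogenase gave -0.0014, -0.10 and -0.076 in S1 against W after median-of-ratios, upper-quartile and quantile scaling, -0.046 and -0.019 in S3 against S1 and -0.048 and -0.12 in S3 against W after the first pair of these. PEP carboxylase gave -0.022 in S1 against W after upper-quartile scaling. With 1 library left out, the range in S1 against W was -0.13 to 0.18 for NADP-malate dehydrogenase, -0.25 to 0.45 for PEP carboxylase, -0.015 to 0.42 for NADP-malic enzyme and -1.10 to 0.087 for GRMZM2G113033. For NADP-malate dehydrogenase it was -0.30 to 0.48 in S3 against S1 and -0.28 to 0.51 in S3 against W. The causes were not tested.

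Deviations of same-numbered replicates correlated across genes at 0.14 between W and S1, -0.09 between W and S3 and 0.06 between S1 and S3, so the numbers were not taken as pairs. By the paper, read length differed slightly between first and second replicates. Only the replicate block takes this difference in. With the replicate block 0 C4 genes were called in S1 against W, 5 in S3 against S1 and 6 in S3 against W, the difference being NADP-malic enzyme (adjusted p = 0.0587 and 0.0850 in limma). FPKM keep no counts, so no limit of detection is given.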
